A study of Mus musculus with 6 samples.

Results

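The 46 genes described here are 21 cytosolic aminoacyl-tRNA synthetases, 16 mitochondrial aminoacyl-tRNA synthetases and 9 genes of the ATF4 response, chosen by symbol from the 23284 symbols counted, and all 46 were present. Their RNA was measured in mouse GV oocytes, immature eggs that still hold a germinal vesicle, the large nucleus of meiotic prophase. The oocytes carried either the genotype Lsd1 KO (3 samples) or Control (3 samples), on a mixed C57BL/6-129 background in both groups. Both groups came from females aged 4 to 6 weeks that had been given PMSG, a hormone that drives follicle growth, at 5 IU and 48 hours earlier, and each sample pooled 100 oocytes. The sources used here do not give the Cre line behind the deletion, the exons removed or the exact genotype of the controls.

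Aminoacyl-tRNA synthetases charge each tRNA with its amino acid and so supply the ribosome. The cytosolic and the mitochondrial compartment have largely separate nuclear-encoded sets, but Gars and Kars serve both compartments from a single gene. Several cytosolic enzymes are bound together in the multisynthetase complex. When uncharged tRNA or other stress activates a kinase of the initiation factor eIF2, general translation falls while translation of ATF4 rises, and this transcription factor induces genes of amino acid synthesis, transport and tRNA charging. ATF4 is controlled to a large extent at translation, which counts of RNA do not measure. In the fully grown oocyte, transcription is low and the stored RNA supports the divisions that follow.

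Libraries held 10735422 to 13035045 counts, and levels are TMM-scaled CPM, each gene's share of a library's counts, as mean ± SD with n = 3 per genotype. Where levels of different genes are set side by side, they are CPM per kilobase of annotated exon (RPKM). Every log2 fold change sets Lsd1 KO over Control and carries its SE from edgeR's quasi-likelihood test, and a gene is said to have risen or fallen where its Benjamini-Hochberg adjusted p over all 12935 genes tested was under 0.05. Kdm1a, which encodes LSD1, was at 3.77, 2.80 and 3.23 CPM in the Lsd1 KO libraries, against 73.9, 72.5 and 44.4 CPM in the Control libraries (log2 -4.28 ± 0.27, edgeR adjusted p = 4.58e-06), which is the direction the labels give. The first principal component (55.8% of the variance) separated the genotypes, the second (14.8%) set Control replicate 3 apart while Lsd1 KO replicate 2 stood off on the third (13.7%); calls without each library are given beside the results. The 15 oocyte markers summed to 37929 to 40564 CPM in Lsd1 KO, beside 24522 to 29101 CPM in Control, and Gdf9 alone made up 15558 CPM of the first and 6057 CPM of the second on average. Of the 15, 3 rose (Gdf9, Oosp1, Dppa3) and 1 fell (Mos), with a median log2 fold change of -0.06. The 15 granulosa markers summed to 661 to 789 CPM in Lsd1 KO, beside 344 to 419 CPM in Control, and of 13 tested, 3 rose (Cyp19a1, Ptgs2 and Inha) and 1 fell (Nr5a2). Their median log2 fold change was 1.31, with 11 of the 13 above 0. The 17 blood and immune markers summed to 197, 37.0 and 182 CPM in Lsd1 KO replicates 1 to 3 and to 26.1 to 76.7 CPM in Control. Of 10 tested, 1 rose, but all 10 had a log2 fold change above 0, with a median of 1.70. No library held a count of 4 globin genes. The 10 theca and stromal markers summed to 10.6 to 14.5 CPM in Lsd1 KO, beside 2.04 to 3.25 CPM in Control, and 1 of 2 tested rose (median log2 fold change 2.32). The part of these other cells in the results below was not tested. In bulk samples, fewer cells of a type and less RNA per cell cannot be told apart.

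Of the 46 genes, 43 passed the filter on low counts; Hars2, Trib3 and Sesn2 did not. Among the 43, 8 rose and 4 fell in Lsd1 KO, together 27.9%, where 21.3% of all genes tested were called (11.0% higher and 10.3% lower). The cytosolic enzymes gave 5 rises and 2 falls of 21 tested, the mitochondrial enzymes 1 rise and 2 falls of 15, and the ATF4 group 2 rises and no fall of 7. The median log2 fold change was 0.28 in the cytosolic group, -0.43 in the mitochondrial group and 0.30 in the ATF4 group, beside -0.01 over all genes tested. The mitochondrial median was 0.10 over the 5 members left by a filter of 10 CPM in 3 libraries, and -0.65 without Control replicate 3. The 3 values of each genotype did not overlap for 21 of the 43 genes, where this held for 38.7% of all genes tested.

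**Figure D1:**
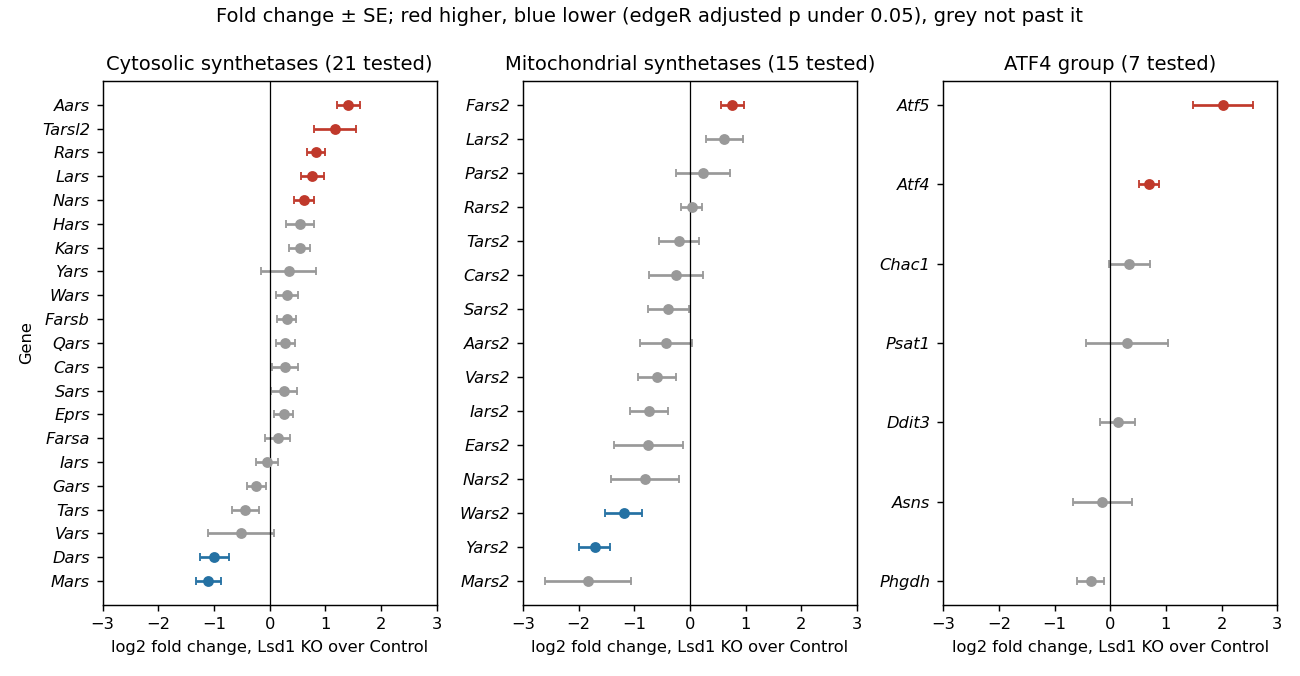
Log2 fold change of each tested gene, Lsd1 KO over Control, with its standard error (x axis), in the cytosolic, mitochondrial and ATF4 groups. Of the 21 cytosolic enzymes 15 lie above 0, of the 15 mitochondrial enzymes 11 lie below 0, and in the ATF4 group the 2 genes that passed the threshold are Atf5 and Atf4.

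The cytosolic synthetases, which supply the main pool of charged tRNA, were at a median of 10.3 RPKM in Control and 10.2 RPKM in Lsd1 KO. Iars, the isoleucine enzyme, had the highest level of the group, 113 ± 8.54 RPKM in Control, followed by Farsb at 73.0 ± 5.87, Nars at 56.6 ± 9.40 and Rars at 42.5 ± 4.29 RPKM. At the other end Vars and Yars were at 0.327 ± 0.174 and 0.330 ± 0.0653 RPKM in Control, which differ by less than their spread. The valine and tyrosine enzymes thus had the least RNA per length of the cytosolic set in both genotypes, with 0.230 ± 0.0461 and 0.418 ± 0.0436 RPKM in Lsd1 KO. Iars did not pass the test: its Lsd1 KO libraries were at 427, 713 and 597 CPM, on both sides of the Control libraries at 590, 558 and 647 CPM. Qars, the glutamine enzyme and the second most abundant of the group by CPM, was at 237, 228 and 295 CPM in Lsd1 KO, against 224, 201 and 202 CPM in Control (log2 0.28 ± 0.17, edgeR adjusted p = 0.271).

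Aars, the alanyl-tRNA synthetase, rose most among the cytosolic enzymes. It was at 71.2, 88.2 and 88.4 CPM in the Lsd1 KO libraries, against 24.0, 32.3 and 36.9 CPM in the Control libraries. The lowest Lsd1 KO library lay well above the highest Control library, and the mean was 2.66-fold higher (log2 1.41 ± 0.21, edgeR adjusted p = 8.62e-04). Aars maps to mm9 chromosome 8, bases 113557044 to 113581564.

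Rars, the arginine enzyme and a member of the multisynthetase complex, was at 257, 231 and 245 CPM in Lsd1 KO, against 121, 147 and 143 CPM in Control. All 3 Lsd1 KO libraries were above every Control library, by 1.78-fold on average (log2 0.83 ± 0.17, edgeR adjusted p = 0.00461). On mm9 the gene spans chromosome 11 from 35621883 to 35648008. Nars, which charges asparagine, was at 247, 205 and 235 CPM in Lsd1 KO, against 125, 147 and 175 CPM in Control (log2 0.62 ± 0.18, edgeR adjusted p = 0.0284), with no overlap. Lars, the leucine enzyme of the complex, was at 47.1, 37.2 and 40.1 CPM against 19.8, 24.5 and 28.8 CPM, also without overlap (log2 0.77 ± 0.21, edgeR adjusted p = 0.0204). The threonyl-tRNA synthetase-like gene Tarsl2 was at 16.996, 9.47 and 8.80 CPM in Lsd1 KO, against 3.33, 6.85 and 5.33 CPM in Control. Its Lsd1 KO replicate 1 stood above the other 2 and the groups did not overlap (log2 1.18 ± 0.37, edgeR adjusted p = 0.0412). Tars, the main cytosolic threonine enzyme, had more RNA per length than Tarsl2 in both genotypes (8.42 against 2.87 RPKM in Lsd1 KO) and a fold change of the other sign that did not pass (log2 -0.44 ± 0.24, edgeR adjusted p = 0.224).

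Of these rises, those of Aars and Rars held with each library left out in turn. Nars passed in 2 of the 6 such fits (edgeR adjusted p up to 0.116), not without Lsd1 KO replicate 1 or 3 or Control replicate 1 or 2. Lars passed in 3 (up to 0.0895), not without Lsd1 KO replicate 1 or Control replicate 1 or 2, and Tarsl2 in 3 (up to 0.198), not with Control replicate 1 or 3 or Lsd1 KO replicate 1 removed. Tarsl2 shares 120 of its 4095 exon bases with Tm2d3 on the same strand, which was far more abundant, at 190 against 144 CPM.

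Mars and Dars were the cytosolic enzymes that fell. Mars, which charges methionine on both initiator and elongator tRNA, was at 15.2, 19.8 and 14.2 CPM in Lsd1 KO, against 28.8, 35.6 and 41.0 CPM in Control. The Control level was 2.14-fold higher, without overlap (log2 -1.10 ± 0.23, edgeR adjusted p = 0.00552), and the call held with each library left out. On mm9 the gene spans chromosome 10 from 126733277 to 126748842, where its end shares 68 exon bases with Ddit3 on the opposite strand. The sources used here do not say whether counting used strand, and Ddit3 was at 11.9 CPM in Lsd1 KO, beside 10.8 CPM in Control. Dars, the aspartate enzyme, was at 16.9, 19.2 and 34.0 CPM in Lsd1 KO, against 42.2, 53.2 and 43.9 CPM in Control (log2 -0.99 ± 0.26, edgeR adjusted p = 0.0175). Lsd1 KO replicate 3 stood nearest to the Control libraries. Dars passed in 3 of the 6 fits with a library left out (edgeR adjusted p up to 0.0865), not without Lsd1 KO replicate 1 or 2 or Control replicate 2.

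Rars and Lars, which rose, and Mars and Dars, which fell, all belong to the multisynthetase complex. Of the 8 enzymes of the complex the other 4 did not pass: Eprs (log2 0.25), Qars (0.28), Kars (0.54) and Iars (-0.05). The summed level of the 8 was 1222, 1439 and 1460 CPM in Lsd1 KO, beside 1186, 1192 and 1283 CPM in Control, so that these groups overlapped. A large part of this sum, and of its spread, came from Iars alone. It gave 427, 713 and 597 CPM in Lsd1 KO, beside 590, 558 and 647 CPM in Control. The scaffold proteins of the complex gave no call: Aimp1 (0.17 ± 0.46), Aimp2 (-0.02 ± 0.23) and Eef1e1 (-0.24 ± 0.23), none with an unadjusted p under 0.05. The 13 cytosolic enzymes outside the complex gave 3 rises (Aars, Nars, Tarsl2) and no fall. This was 23.1% called, near the 21.3% of all genes tested. The summed level of these 13 was 750 to 766 CPM in Lsd1 KO, beside 524 to 600 CPM in Control, without overlap. Whether calls differed between enzymes inside and outside the complex was not tested.

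Neither enzyme that serves both compartments passed the test. Kars, the lysine enzyme, was at 73.5, 62.4 and 81.4 CPM in Lsd1 KO, against 42.9, 50.8 and 56.0 CPM in Control. The groups did not overlap, but the adjusted p was just above the threshold (log2 0.54 ± 0.19, edgeR adjusted p = 0.0590). It passed in 5 of the 17 alternative fits and cutoffs, among them DESeq2 (adjusted p = 0.0404). Gars, the glycine enzyme, was at 54.8 to 61.9 CPM in Lsd1 KO, beside 62.7 to 74.3 CPM in Control (log2 -0.24 ± 0.17, edgeR adjusted p = 0.350). Hars, for histidine, was at 22.0, 28.7 and 20.9 CPM against 14.2, 14.0 and 20.8 CPM (log2 0.55 ± 0.25, edgeR adjusted p = 0.134). Hars2, the mitochondrial histidine enzyme whose start overlaps that of Hars head to head over 195 exon bases, had 1 to 22 counts per library and was not tested.

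By catalytic class, the cytosolic enzymes gave 2 rises and 1 fall of 9 in class I and 3 rises and 1 fall of 11 in class II. These were 33.3% and 36.4% called, beside 21.3% of all genes tested. Eprs has domains of both classes and was counted in neither. Both components of the cytosolic phenylalanine enzyme were without a call, Farsa at log2 0.15 ± 0.23 and Farsb at 0.30 ± 0.17. Farsb had far more RNA per length than Farsa, 73.0 against 3.92 RPKM in Control and 90.1 against 4.34 RPKM in Lsd1 KO, although the enzyme is built of equal numbers of both subunits. The size of this gap depends on the annotated exon lengths, 2444 bases for Farsb and 4538 for Farsa. By CPM they were at 178 and 17.8 in Control. The other cytosolic enzymes without a call, Cars, Sars, Tars, Vars, Wars, Yars and Eprs, had log2 fold changes from -0.51 to 0.34.

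**Figure D2:**
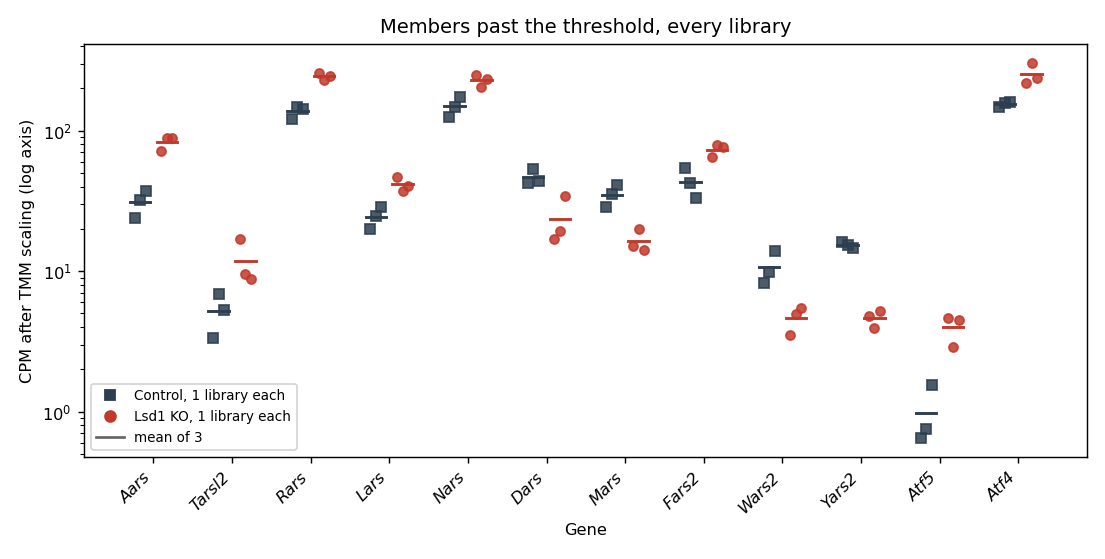
CPM (log axis) of the 12 genes that passed the threshold, with every Control library (squares), every Lsd1 KO library (circles) and the mean of 3 (bars). For each of the 12 genes the libraries of one genotype lie apart from those of the other, down to Atf5 at 0.647 to 4.65 CPM. The 12 were chosen by a test on these same values, so that their separation adds no support. The values did not overlap for 38.7% of all genes tested.

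The mitochondrial synthetases charge the tRNAs used to translate the few proteins encoded by mitochondrial DNA, and most had little RNA: the median was 1.53 RPKM in Control and 1.00 RPKM in Lsd1 KO. In Control 3 of the 16 were above 10 RPKM, namely Lars2 (402 ± 204), Fars2 (20.3 ± 4.94) and Rars2 (10.5 ± 0.956), and 6 were below 1 RPKM. The median count over these genes and libraries was 55, beside 402.5 for the cytosolic enzymes, so that the mitochondrial values carry more counting error.

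Yars2, the mitochondrial tyrosine enzyme, showed the clearest fall. It was at 4.81, 3.97 and 5.21 CPM in the Lsd1 KO libraries, against 16.0, 15.4 and 14.5 CPM in the Control libraries. The libraries of each genotype lay close together and the Control mean was 3.28-fold higher (log2 -1.71 ± 0.28, edgeR adjusted p = 0.00179), in each of the fits with a library left out as well. Yars2 maps to mm9 chromosome 16, bases 16303058 to 16309733. Wars2, for tryptophan, was at 3.53, 4.96 and 5.48 CPM in Lsd1 KO, against 8.23, 9.87 and 13.8 CPM in Control (log2 -1.19 ± 0.34, edgeR adjusted p = 0.0256). The groups did not overlap, and the call was lost when Control replicate 2 or 3 or Lsd1 KO replicate 1 was removed (edgeR adjusted p up to 0.109).

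Fars2, the mitochondrial phenylalanine enzyme, a single chain unlike its cytosolic counterpart, was the only gene of this group that rose. It was at 64.5, 79.5 and 76.3 CPM in Lsd1 KO, against 54.1, 42.4 and 33.1 CPM in Control (log2 0.76 ± 0.21, edgeR adjusted p = 0.0212), without overlap. It passed in 2 of the 6 fits with a library left out (edgeR adjusted p up to 0.0652), not without Lsd1 KO replicate 2 or 3 or Control replicate 2 or 3.

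Lars2, the mitochondrial leucine enzyme, stood far above the other members of the group in RNA per length. It was at 2442, 2570 and 2174 CPM in Lsd1 KO, against 2035, 648 and 2003 CPM in Control, so that Control replicate 2 lay apart from its own group. The fold change did not pass (log2 0.62 ± 0.33, edgeR adjusted p = 0.205) and was 0.26 without Control replicate 2. The ribosomal RNA precursor Rn45s made up 1.93%, 0.895% and 1.88% of counts in Lsd1 KO replicates 1 to 3. In Control replicates 1 to 3 it made up 1.81%, 0.630% and 1.14%. The part of Rn45s in the Lars2 values was not tested. Without Lars2 the summed level of the mitochondrial group was 139.7, 158.6 and 151.5 CPM in the Lsd1 KO libraries against 164.6, 166.8 and 123.5 CPM, with overlap.

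Rars2, the mitochondrial arginine enzyme, was at 29.3, 31.3 and 28.6 CPM against 28.2, 32.0 and 26.9 CPM in Control, with overlapping groups (log2 0.03 ± 0.19, edgeR adjusted p = 0.915). Among the mitochondrial enzymes without a call, Mars2 for methionine had the lowest unadjusted p. It was at 0.962, 0.361 and 0.0898 CPM in Lsd1 KO, against 2.31, 1.73 and 1.17 CPM in Control, from 12, 4 and 1 counts against 25, 23 and 13, without overlap (log2 -1.84 ± 0.77, edgeR adjusted p = 0.109). Iars2, for isoleucine, was at 5.85, 6.76 and 5.75 CPM in Lsd1 KO, against 12.1, 12.5 and 5.87 CPM in Control (log2 -0.73 ± 0.35, edgeR adjusted p = 0.153). Here Control replicate 3 was at the level of the Lsd1 KO libraries, and without it the adjusted p was 0.0309. Control replicate 3 was also the lowest Control library for Vars2, at 7.68 CPM beside 15.9 and 17.5 CPM, for Nars2, at 1.35 beside 4.90 and 4.75 CPM, and for Cars2, at 1.99 beside 5.46 and 8.29 CPM. Iars2 shares 2018 of its 8885 exon bases with Rab3gap2 on the opposite strand, which was at 117 and 127 CPM. The remaining mitochondrial enzymes, Aars2, Ears2, Pars2, Rars2, Sars2 and Tars2, had log2 fold changes from -0.75 to 0.23 and did not pass.

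Cytosolic and mitochondrial enzymes for the same amino acid could be set side by side for 12 pairs in which both were tested. In 11 of the 12 the log2 fold change of the cytosolic enzyme was above that of the mitochondrial enzyme, the exception being Tars (-0.44) and Tars2 (-0.20). Most of these genes did not pass the test by themselves, and the difference over pairs was not tested. The count was 10 with limma-voom and 9 to 12 with a library left out. A filter of 10 CPM in 3 libraries left only 2 pairs, both with the cytosolic enzyme above. Some differences were less than the SE of either enzyme. Examples are Vars (-0.51 ± 0.59) with Vars2 (-0.59 ± 0.35) and Lars (0.77 ± 0.21) with Lars2 (0.62 ± 0.33).

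The ratio of the cytosolic to the mitochondrial RPKM was taken within each library. For Aars and Aars2 it was 13.3, 16.0 and 11.1 with Lsd1 KO, against 2.83, 3.29 and 5.27 in Control, with Aars2 itself at log2 -0.43 ± 0.46. For Yars and Yars2 it was 0.256, 0.313 and 0.283 with Lsd1 KO, against 0.0521, 0.0675 and 0.0856 in Control. In both pairs each Lsd1 KO library was above all Control libraries. The ratio was also above all Control libraries in every Lsd1 KO library for Rars and Rars2 (6.33 to 7.53 against 3.69 to 4.56), for Wars and Wars2 (11.1 to 18.7 against 3.52 to 5.65) and for Sars and Sars2 (3.18 to 5.46 against 1.77 to 3.11). In none of the 13 pairs was it below all Control libraries in every Lsd1 KO library. The ratio was thus apart in 5 of the 13 pairs, where single genes did not overlap in 38.7% of all genes tested. No such share was taken for ratios of other gene pairs, and neither Sars nor Sars2 passed the test. The mitochondrial enzyme had more RNA per length than the cytosolic one in 3 pairs in Control: Lars2, Vars2 and Yars2. Of these, Lars2 ranged from 648 to 2035 CPM over the Control libraries, and the part of Rn45s in its values was not tested.

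**Figure D3:**
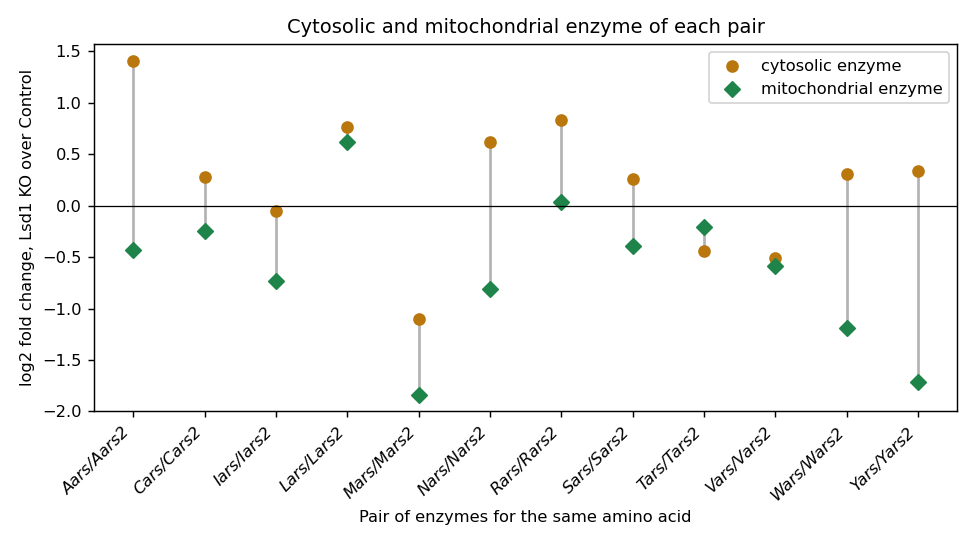
Log2 fold change, Lsd1 KO over Control (y axis), of the cytosolic enzyme (circles) and the mitochondrial enzyme (diamonds) for the same amino acid in the 12 pairs with both tested. The cytosolic enzyme lies above in 11 pairs, furthest for Yars (0.34) over Yars2 (-1.71) and Aars (1.41) over Aars2 (-0.43).

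In the ATF4 group the RNA of the regulator itself rose. Atf4 was at 217, 304 and 235 CPM in the Lsd1 KO libraries, against 147, 158 and 161 CPM in the Control libraries. All Lsd1 KO libraries lay above the Control libraries, which were close together, by 1.63-fold on average (log2 0.70 ± 0.18, edgeR adjusted p = 0.0157). Atf4 maps to mm9 chromosome 15, bases 80085614 to 80087970. The call was lost when Control replicate 1 or Lsd1 KO replicate 2 was removed (edgeR adjusted p up to 0.0700) and with the correction for length and GC content (adjusted p = 0.0525). Atf5, a related factor of the same stress response, was at 4.65, 2.89 and 4.49 CPM in Lsd1 KO, against 0.647, 0.753 and 1.54 CPM in Control, from 32 to 58 counts against 7 to 17. It rose 4.10-fold without overlap (log2 2.03 ± 0.54, edgeR adjusted p = 0.0189) but passed in only 2 of the 6 fits with a library left out (adjusted p up to 0.0754), those without Lsd1 KO replicate 2 or Control replicate 3. Atf5 shares 82 exon bases with Nup62 on the opposite strand, at 131 and 170 CPM.

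The other members, which ATF4 is known to induce, did not pass. Ddit3, which encodes the stress factor CHOP, was at 12.2, 8.21 and 15.3 CPM in Lsd1 KO, against 9.34, 13.9 and 9.21 CPM in Control (log2 0.13 ± 0.31, edgeR adjusted p = 0.797), with overlapping groups. Asns, the asparagine synthetase, was at 3.21, 1.71 and 7.45 CPM against 6.20, 2.79 and 4.70 CPM (log2 -0.14 ± 0.53, edgeR adjusted p = 0.873). Chac1, a glutathione-degrading enzyme, was at 7.14, 4.69 and 10.6 CPM against 6.75, 5.88 and 5.06 CPM (log2 0.34 ± 0.37, edgeR adjusted p = 0.541). The libraries of both genotypes overlapped for each of these 3 genes.

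Phgdh, which starts the synthesis of serine, was at 12.1, 15.5 and 14.9 CPM in Lsd1 KO, against 19.6, 19.5 and 15.1 CPM in Control (log2 -0.35 ± 0.24, edgeR adjusted p = 0.330). Psat1, the next enzyme of that pathway, was at 0.561, 0.722 and 2.51 CPM against 1.39, 1.13 and 0.542 CPM (log2 0.30 ± 0.73, edgeR adjusted p = 0.803). The pseudokinase gene Trib3 had 5, 10 and 10 counts in Lsd1 KO and 0, 8 and 0 in Control, and the leucine sensor gene Sesn2 had 6, 0 and 14 against 7, 10 and 6; neither was tested. The SE of Psat1 was larger than the log2 fold change of Atf4, so that a change of that size was not detectable for Psat1 at this depth. The SEs of Asns (0.53), Chac1 (0.37), Ddit3 (0.31) and Phgdh (0.24) were smaller than that change of 0.70. A change of that size could still be missed for these genes. The group's median of 0.30 was 0.10 with limma-voom. In fits with a library left out, which tested 7 or 8 of the members, it ran from -0.06 without Lsd1 KO replicate 3 to 0.54 without Lsd1 KO replicate 1, and was 0.12 when Control replicate 3 was removed.

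**Figure D4:**
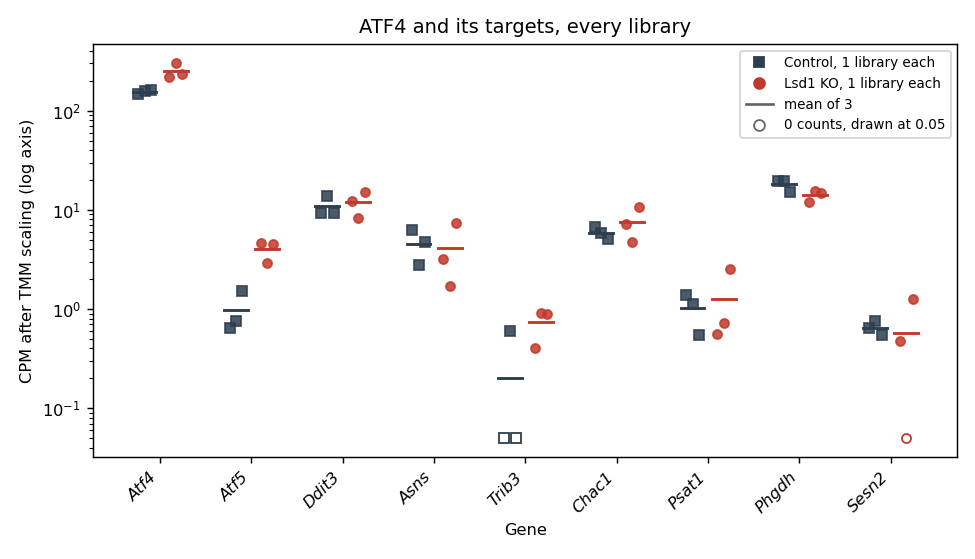
CPM (log axis) of the 9 genes of the ATF4 group in every Control library (squares) and Lsd1 KO library (circles), with the mean of 3 (bars) and libraries without a count drawn as open symbols at 0.05. Atf4 and Atf5 are apart between genotypes, and in the other 7 genes the libraries of both genotypes overlap.

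Since ATF4 acts through a short composite element, promoters were searched for TGATGNAA, on both strands, in RefSeq windows from 250 bases before to 50 bases after the annotated start (build GRCm38.p6), where 37 of the 46 genes had an entry. Cars, Hars, Lars, Nars, Rars, Vars, Wars, Hars2 and Pars2 had none and were not searched. No other motif was searched. The letters were present for 5 of 14 cytosolic enzymes (Aars, Gars, Iars, Tars, Yars), for 3 of 9 genes of the ATF4 group (Asns, Trib3, Chac1) and for none of 14 mitochondrial enzymes, where 4.51% of all 27025 genes with a window held them. A match is a description of the sequence and not a measured binding site. Stretches of 60 bases upstream of the start are shown for 4 genes because all hold a match but only Aars rose. Each is on the gene's strand, 5′ to 3′, and the capitals mark the match, written as its reverse complement where it lies on the opposite strand:
Aars, chr8:111033704-111033763, + strand: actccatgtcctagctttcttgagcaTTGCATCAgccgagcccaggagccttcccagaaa
Tars, chr15:11399659-11399718, - strand: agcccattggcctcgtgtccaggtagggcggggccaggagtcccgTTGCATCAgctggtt
Asns, chr6:7693210-7693269, - strand: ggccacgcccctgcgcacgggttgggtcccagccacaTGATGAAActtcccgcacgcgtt
Chac1, chr2:119351023-119351082, + strand: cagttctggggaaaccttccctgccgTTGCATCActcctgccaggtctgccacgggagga

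Aars has a second match after its start. In the stretches shown the match ended 104 bases before the start in Aars, 7 in Tars, 15 in Asns and 185 in Chac1. Aars, which rose (1.41), and Tars, which did not pass (-0.44), have the same 8 letters on the same strand relative to the gene. Of the 5 cytosolic enzymes that rose, Lars, Nars and Rars were among those not searched. Of the 8 genes with the letters, Aars rose, Trib3 was not tested, and the other 6 did not pass, with log2 fold changes from -0.44 to 0.34. Among 12 cytosolic enzymes that are textbook targets of ATF4, 3 rose (Aars, Lars, Nars) and 1 fell (Mars), with a median of 0.27. The other 9 cytosolic enzymes gave 2 rises (Rars, Tarsl2) and 1 fall (Dars), with a median of 0.30. The share called was 33.3% in each of these sets, beside 21.3% of all genes tested.

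Related genes of the pathway were read from fixed lists. Of 26 other ATF4 targets tested, 2 rose and 3 fell, with a median log2 fold change of -0.05. Together these were 19.2%, beside 21.3% of all genes tested. Slc3a2, the heavy chain shared by several amino acid transporters, was at 185 ± 0.301 CPM in Lsd1 KO, against 100 ± 21.7 CPM in Control (log2 0.88 ± 0.19, edgeR adjusted p = 0.00622). Its light chain partner Slc7a5, which carries leucine and other large neutral amino acids, moved the other way, from 25.8 ± 5.44 CPM in Control to 12.0 ± 1.79 CPM (log2 -1.10 ± 0.25, edgeR adjusted p = 0.00849). The secreted glycoprotein gene Stc2 fell: it was at 8.99 ± 2.31 CPM in Control and 2.61 ± 1.03 CPM in the Lsd1 KO libraries (log2 -1.78 ± 0.41, edgeR adjusted p = 0.00956). Calls on Slc3a2, Slc7a5 and Stc2 held with each library left out. Cth, which makes cysteine, rose (0.80 ± 0.23, adjusted p = 0.0295), and the remaining fall was in the histone demethylase gene Jhdm1d (-0.61 ± 0.19, edgeR adjusted p = 0.0388), named after its value was seen. Cth passed in 2 of the 6 fits with a library left out, not without Lsd1 KO replicate 1 or 3 or Control replicate 2 or 3 (edgeR adjusted p up to 0.101). Jhdm1d passed in 2 as well, not without the same 4 libraries (up to 0.173), and with the length and GC correction it was at -0.38 (adjusted p = 0.117).

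Upstream of ATF4, 2 of 17 genes of eIF2, its kinases and its phosphatases rose and 2 fell, with a median of 0.06. The share called was 23.5%, near the 21.3% of all genes tested. Eif2s1, which encodes the alpha subunit that the kinases phosphorylate, was at 90.8, 82.8 and 107 CPM in Lsd1 KO, against 187, 156 and 203 CPM in Control (log2 -0.96 ± 0.18, edgeR adjusted p = 0.00348), without overlap and in every fit with a library left out. Eif2s3x, for the gamma subunit, rose (0.58 ± 0.18, edgeR adjusted p = 0.0365). Eif2ak2, the kinase that responds to double-stranded RNA, rose: its Lsd1 KO libraries were at 7.94, 4.87 and 4.76 CPM and those of Control at 0.832, 2.41 and 1.17 CPM (log2 1.97 ± 0.50, edgeR adjusted p = 0.0147). Eif2ak4, the kinase activated by uncharged tRNA, was at 108, 95.1 and 87.3 CPM in Lsd1 KO, against 55.2, 70.5 and 81.1 CPM in Control, and did not pass (log2 0.49 ± 0.19, edgeR adjusted p = 0.0867). Ppp1r15b, a phosphatase subunit that reverses the phosphorylation, fell (-0.61 ± 0.20, edgeR adjusted p = 0.0471). With a library left out, Eif2ak2 was lost when replicate 1 of either genotype was removed (adjusted p up to 0.0782), Eif2s3x passed only without Lsd1 KO replicate 3 (up to 0.148), and Ppp1r15b only with Control replicate 1 or Lsd1 KO replicate 2 removed (up to 0.202). The call on Ppp1r15b was lost in 12 of 17 alternatives, among them upper-quartile scaling, library totals, limma-voom and both other filters.

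In neighbouring steps of tRNA use, 2 of 15 genes rose and none fell (13.3% called, beside 21.3% of all genes tested). Dtd1, which removes D-amino acids from mischarged tRNA, was at 37.3, 38.5 and 38.6 CPM in Lsd1 KO, against 7.49, 3.99 and 6.59 CPM in Control. No Control library came near the Lsd1 KO libraries (log2 2.67 ± 0.26, edgeR adjusted p = 6.23e-05), also with each library left out. Eefsec, the elongation factor for selenocysteine, rose, with 34.6 ± 4.56 CPM against 22.3 ± 1.56 CPM in Control (log2 0.63 ± 0.20, edgeR adjusted p = 0.0386), and passed only without Lsd1 KO replicate 2 among the 6 such fits (up to 0.134); it also lost its call without the filter on low counts.

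Of 24 genes of the unfolded protein response of the endoplasmic reticulum, 1 rose and 1 fell, with a median of 0.01. This was 8.33% called, beside 21.3% of all genes tested. Derl1, part of the channel for misfolded proteins, rose (0.90 ± 0.26, edgeR adjusted p = 0.0260) and Dnajc3, a co-chaperone that restrains eIF2 kinases, fell (-0.80 ± 0.20, edgeR adjusted p = 0.0143). Derl1 was lost when Control replicate 1 or 2 or Lsd1 KO replicate 3 was removed (edgeR adjusted p up to 0.0973), and Dnajc3 without Lsd1 KO replicate 1 or 3 (up to 0.0865). Of 11 mitochondrial proteases and chaperones, 1 fell and none rose (9.09% called, beside 21.3% of all genes tested). Htra2, a protease of the intermembrane space, was at 1.76, 1.80 and 1.97 CPM in Lsd1 KO, against 6.66, 6.93 and 8.49 CPM in Control (log2 -1.99 ± 0.38, edgeR adjusted p = 0.00352). The call on Htra2 held with each library left out.

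**Figure D5:**
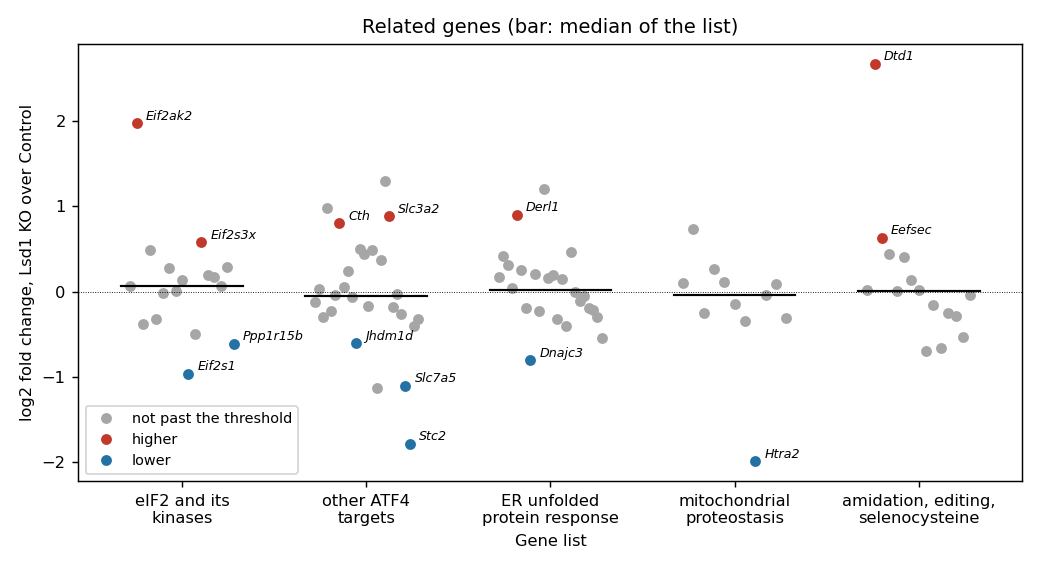
Log2 fold change, Lsd1 KO over Control (y axis), of each tested gene in 5 lists of related genes, with the list median as a bar; red genes rose, blue genes fell and grey genes did not pass. Medians lie between -0.05 and 0.06, and the called genes lie on both sides of 0 for the other ATF4 targets, the eIF2 list and the unfolded protein response.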

How the data were processed

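RNA of 100 oocytes per sample was amplified with the NuGEN Ovation system and sequenced as paired-end TruSeq libraries, per the labels' protocols. The deposited files give raw read counts per gene symbol, made by the authors; HTSeq 0.5.3p9, TopHat2 2.0.7, CASAVA 1.8.2 and the build mm9 are named in the submitters' processing notes. The sources used here give no counting options, strand setting or annotation. The 2 genotypes, 3 biological replicates each per the series design, were compared with edgeR 4.0.16 (R 4.3.3): filterByExpr with a minimum count of 10, TMM, quasi-likelihood F test, two-sided, threshold 0.05. The fit covered all 12935 genes, and residual degrees of freedom were 4. It was also run on counts simulated from its own means and dispersions. Such counts follow the model, so that run cannot show the effect of amplification or of a library that stands apart. SEs come from the fold change and the F statistic. Positions, exon lengths and GC content came from GENCODE M1 on NCBIM37, the assembly of mm9; promoters came from RefSeq.

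Members and lists were chosen with earlier results of these data known. Values per library are given for members past the threshold, the 2 most abundant and the 2 with the smallest p of the others in each group, and the whole ATF4 group; in related lists up to 4 called genes are named. Of the list entries, 3 (Pet112, Dtd2, Dele1) matched no symbol. Amplification before library preparation can add spread. Alternatives were DESeq2 1.42.0 (size factors, Wald test), limma-voom 3.58.1, other scalings, filters and cutoffs, a replicate block, a length and GC correction (loess, span 0.5), and each library left out.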

Additional observations from a re-analysis of the deposited data

How the results depend on the processing

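With the other scalings (DESeq2 size factors, upper quartile, library totals), the tests of DESeq2 and limma-voom, or no filter, no member lost its call, and Kars gained one under 3 of these 6. No member's call reversed under any of the 17 alternatives. Requiring 10 CPM in 3 libraries left 26 members, with 1 mitochondrial fall and 1 ATF4 group rise. Under this filter Tarsl2, Wars2 and Atf5 were no longer tested. No member that was still tested lost its call, and Kars gained one. The length and GC correction left 1 ATF4 group rise. An adjusted p under 0.01 left 2 cytosolic rises and 1 fall, 0 mitochondrial rises and 1 fall, 0 ATF4 group rises, and 676 higher and 497 lower of all genes. An adjusted p under 0.05 together with a log2 change of 1 or more in size left 2 cytosolic rises and 1 fall, 0 mitochondrial rises, 1 ATF4 group rise, and 945 higher and 625 lower of all genes. Leaving out a library gave 2 to 5 cytosolic rises and 1 to 2 falls, 0 to 1 mitochondrial rises and 1 to 2 falls, 0 to 2 ATF4 group rises and 0 falls, and 932 to 1466 higher and 638 to 1346 lower of all genes. The replicate block left 3 cytosolic rises, without Nars (adjusted p = 0.0531) and Tarsl2 (0.0690); among the related genes it ended the calls on Eefsec, Eif2s3x, Jhdm1d and Ppp1r15b. Same-numbered libraries did not deviate together in every pair (r = -0.03, 0.11 and -0.02), so the numbers were not taken as pairs. Depth limits the mitochondrial group, where single libraries held as few as 1 count (Hars2, Mars2), and the ATF4 group, with as few as 0 (Trib3, Sesn2).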
